A study of Mus musculus with 14 samples.

Results

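The gamma crystallins are the 7 genes Cryga, Crygb, Crygc, Crygd, Cryge, Crygf and Crygs, followed here by name through the deposited expression tables of embryonic mouse heads. A locus was taken as a member when its list of gene names held one of the 7, which gave 8 loci of 67811, since 2 loci carried the name Cryge. The genes were chosen by their lower FPKM values in Zcchc8 knockout than in wild-type heads, so that comparison is given below as a description, and the count of calls in it is printed without being read as support. FPKM is the number of fragments relative to transcript length and library size, a level that can be compared between genes. Of the 8 loci, 6 reached an FPKM of 0.5 in at least 3 libraries and entered the fits over 18217 loci. Crygs and the second Cryge locus did not, and Crygf did so only through WT and HET libraries.

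The study measured polyadenylated RNA in whole E12.5 heads, brain and eyes included, of C57BL/6J mouse embryos that differed at Zcchc8, which codes for a scaffold protein of the nuclear exosome targeting complex. There were 5 libraries of Zcchc8+/+ heads (WT), 3 of Zcchc8+/- heads (HET, numbered 3 to 5) and 6 of Zcchc8-/- heads (KO). No treatment is given, and the sources used here do not state which part of Zcchc8 is altered or tie each library to an embryo of its own. Both sexes occurred in each genotype by Xist and Y-linked RNA, so each group held more than 1 embryo, but the p-values measure only the spread between these libraries, part of which may be technical. Total depth is unknown, and depth relative to library WT1 was 1.0 to 1.505. Zcchc8 RNA (chromosome 5, 123698294 to 123721100, mm10) followed the labels: WT heads had 39.7 ± 2.32 FPKM (SD, n = 5), HET heads 25.7 ± 1.64 (SD, n = 3) and KO heads 15.5 ± 3.91 (SD, n = 6). The 5 lens markers Mip, Bfsp1, Bfsp2, Lim2 and Foxe3 were detected, with WT means from 0.411 FPKM for Foxe3 to 2.83 for Mip, and neurons were well represented (Stmn2 203 FPKM in WT). In a whole head, fewer lens cells and less RNA per lens cell cannot be told apart.

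Gamma crystallins are small, water-soluble structural proteins of the eye lens, built from paired Greek key folds that they share with the beta crystallins. They are made almost exclusively in lens fibre cells, the elongated cells that differentiate from lens epithelium, where they are packed at very high concentration and raise the refractive index. Their transcription starts as the first fibre cells elongate, later than that of the alpha crystallins, and depends on lens factors such as MAF, SOX1, SOX2, PROX1 and PAX6. Mutations in several of them cause cataract in mice and people.

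The 90 bases before the outermost annotated start of 5 of the 6 chromosome 1 genes are shown, as all 6 varied together across the libraries. They are from the RefSeq promoter table of GRCm38.p6, the build that mm10 also denotes, and are written 5′ to 3′ on the strand of the gene. The RefSeq start used for positions further on lies 10 bases inside that start in Cryga, 12 in Crygd and 2 in Crygf, and at it in Crygb and Cryge. In Crygc, which is not shown, the RefSeq start lies 157 bases inside the outermost start. Capitals mark matches to CTTTTGTG and to TATATA, and overlapping matches run together. Both motifs were picked after the sequences had been seen. The windows are chr1:65103374-65103463 for Cryga, chr1:65082291-65082380 for Crygb, chr1:65063453-65063542 for Crygd and chr1:65051164-65051253 for Cryge, all on the minus strand, and chr1:65926430-65926519 for Crygf on the plus strand.
Cryga: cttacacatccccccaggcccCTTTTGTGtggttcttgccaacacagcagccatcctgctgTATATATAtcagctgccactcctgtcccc
Crygb: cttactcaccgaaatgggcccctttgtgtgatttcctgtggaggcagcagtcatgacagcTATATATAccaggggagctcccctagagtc
Crygd: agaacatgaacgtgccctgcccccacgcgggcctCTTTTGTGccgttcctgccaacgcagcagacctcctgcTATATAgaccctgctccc
Cryge: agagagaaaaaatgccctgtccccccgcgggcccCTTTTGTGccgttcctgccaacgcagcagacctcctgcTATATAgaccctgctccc
Crygf: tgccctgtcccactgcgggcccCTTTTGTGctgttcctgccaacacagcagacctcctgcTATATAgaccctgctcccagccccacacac

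The same pair of motifs recurred with nearly the same spacing between them. Their place differed more, with CTTTTGTG beginning at -79 (Cryga) to -56 (Cryge) bases from the RefSeq start. In the 100 bases before the RefSeq start, on the gene strand, CTTTTGTG was found in Cryga, Crygc, Crygd, Cryge and Crygf, and in 0.253% of 32851 promoters. TATATA was found there in all 6 chromosome 1 genes and in 2.19% of promoters. Both were present in 7 promoters of the genome, or 0.0213%, and 5 of these were gamma crystallins. The first bases of the 2 motifs lay 38 bases apart in Crygd, Cryge and Crygf, 37 in Crygc and 40 in Cryga. Crygb lacked the letters CTTTTGTG in this window, and Crygs had TATAAA, starting 25 bases before its start, which 3.8% of promoters held in the same stretch. TGCTGA, searched on both strands as the core of MAF binding sequences, was in the full promoter windows (250 bases before to 50 after the start) of Cryga, Crygc and Crygs and in 19.5% of all windows. These matches describe letters and do not show binding.

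**Figure D1:**
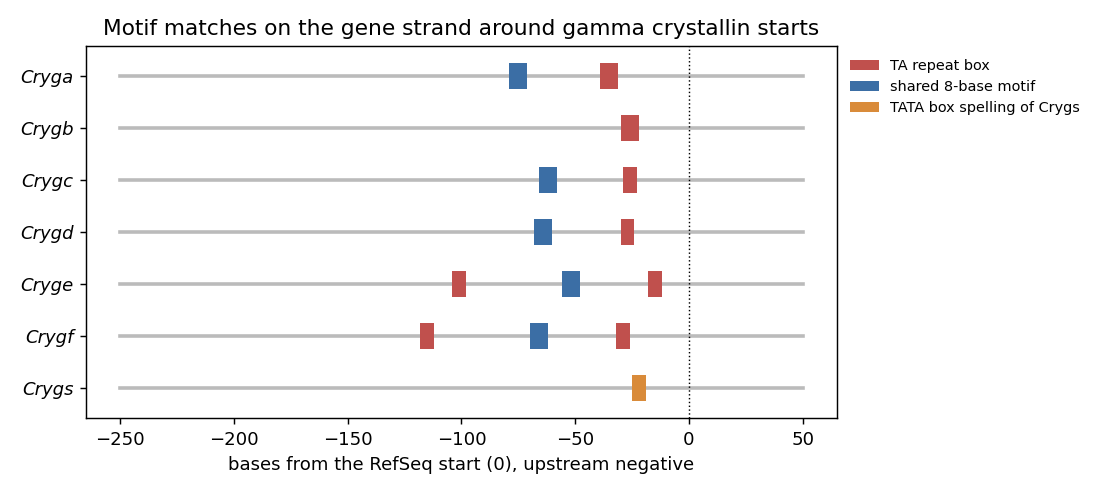
Positions of motif matches on the gene strand from 250 bases before to 50 bases after the RefSeq start of each gene (x axis, bases from the start; one line per gene). The 8-base motif CTTTTGTG, present in 5 genes, lies 37 to 40 bases before a TATATA match, and Crygs has TATAAA instead.

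Cryga, Crygb, Crygc, Crygd and Cryge lie one after another on the minus strand of chromosome 1, from 65048554 (Cryge) to 65103373 (Cryga) in GENCODE M21. Crygf lies apart on the plus strand at 65926520 to 65928307, and Crygs is on chromosome 16 at 22805203 to 22811577. Each has 3 exons in its first annotated transcript. Their coding sequences are close copies: Cryge and Crygf are identical at 98.1% of bases, Crygd and Cryge at 91.6%, and Cryga at 82.1% to 84.1% with the other clustered genes, while Crygs shares 58.8% to 60.4% with any of them. Of all 50-base stretches of the transcript, 56.9% in Cryge, 34.9% in Crygf, 34% in Crygd, 29.4% in Crygb, 24% in Crygc, 5.73% in Cryga and 0% in Crygs also occur in another member. Fragments from the shared stretches may have been assigned to either copy, so the levels of Cryge, Crygf and Crygd are less certain than that of Cryga. The Cryga locus also carried the names AC101869.3 and RP23-348D4.2, and the coordinates given for it in the files, 65080219 to 65123214, are the same as those of Crygb.

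In WT heads Cryga and Cryge were the leading members. Cryga stood at 17.1 ± 3.92 FPKM and Cryge at 15.3 ± 2.87 (SD, n = 5). These levels overlapped between libraries, and within each of the 5 libraries Cryga was the higher. Crygd followed at 3.84 ± 0.94, then Crygb at 2.33 ± 0.926 and Crygc at 2.1 ± 0.376, 2 neighbours in the order that were also within each other's spread. Crygf was at 0.491 ± 0.257 and Crygs at 0.196 ± 0.0664. Cryga and Cryge together made up most of the gamma crystallin RNA, with 41.2% and 37.2% of the summed FPKM on average.

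Cryga, which codes for gamma A crystallin, had 19.3, 15.2, 20.8, 19.1 and 11.2 FPKM in WT1 to WT5 and 24.8, 23.8 and 12.8 in HET3 to HET5. In KO1 to KO6 it had 2.46, 14.2, 2.05, 0.741, 5.07 and 1.53. KO2 lay inside the WT range and the other 5 KO libraries lay below every WT and HET library. The KO mean of 4.34 ± 5.05 (SD, n = 6) was 25.4% of the WT mean, and 13.9% without KO2. The log2 difference from WT was -2.55 (SE 0.59) on the log2(FPKM + 0.1) scale, the largest among the members. In KO1 a separate locus named AC101869.3 alone was at 14.8 FPKM, and it was listed at 0 in the other 13 libraries, so the Cryga value of KO1 is uncertain.

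Cryge, gamma E crystallin, had 18, 13.7, 16.5, 17.2 and 11.1 FPKM in WT1 to WT5 and 24.1, 23.2 and 13.3 in HET3 to HET5. In KO1 to KO6 it had 7.61, 17.1, 4, 2.51, 7.58 and 2.87. KO2 was again among the WT libraries, and the other 5 were below all of them but closer than for Cryga. The KO mean was 6.94 ± 5.44 (45.4% of WT, 32.1% without KO2), and the log2 difference was -1.43 (SE 0.43). The second locus named Cryge was listed at 0 in 13 libraries and at 1.25 FPKM in KO2.

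Crygd, gamma D crystallin, had 4.09, 3.2, 4.55, 4.8 and 2.57 FPKM in WT1 to WT5 and 7.09, 5.24 and 2.82 in HET3 to HET5. In KO1 to KO6 it had 0.709, 2.79, 0.332, 0.103, 1.2 and 0.433. The split was the same, with KO2 alone inside the WT range. The KO mean of 0.928 ± 0.988 was 24.2% of WT, and the log2 difference was -2.41 (SE 0.54).

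Crygb and Crygc, at similar levels in WT, parted in KO. Crygb had 1.42 to 3.81 FPKM in WT, 1.12 to 3.55 in HET, and 0.555, 1.69, 0.261, 0.0986, 0.608 and 0.274 in KO1 to KO6, a KO mean at 25% of WT (log2 difference -2.12, SE 0.48). Crygc had 1.7 to 2.6 FPKM in WT, 2.65 to 3.41 in HET, and 0.708, 2.38, 0.829, 0.553, 1.24 and 0.66 in KO1 to KO6, a KO mean at 50.5% of WT (log2 difference -1.07, SE 0.28). For both genes KO2 lay inside the WT range and the other KO libraries below it.

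Crygf and Crygs were near the limit of these data. Crygf had 0.373, 0.491, 0.667, 0.792 and 0.132 FPKM in WT1 to WT5, 1.43, 0.848 and 0.0375 in HET3 to HET5, and 0.152, 0.294, 0.0568, 0.0334, 0.224 and 0.0174 in KO1 to KO6, so WT and KO overlapped (log2 difference -1.37, SE 0.56). Crygs, a gamma crystallin prominent in the adult lens, had 0.144 to 0.297 FPKM in WT, 0.119 to 0.27 in HET and 0.042 to 0.282 in KO. The 3 groups overlapped for Crygs, with a KO mean at 82.9% of WT, and 0 libraries reached 0.5 FPKM.

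**Figure D2:**
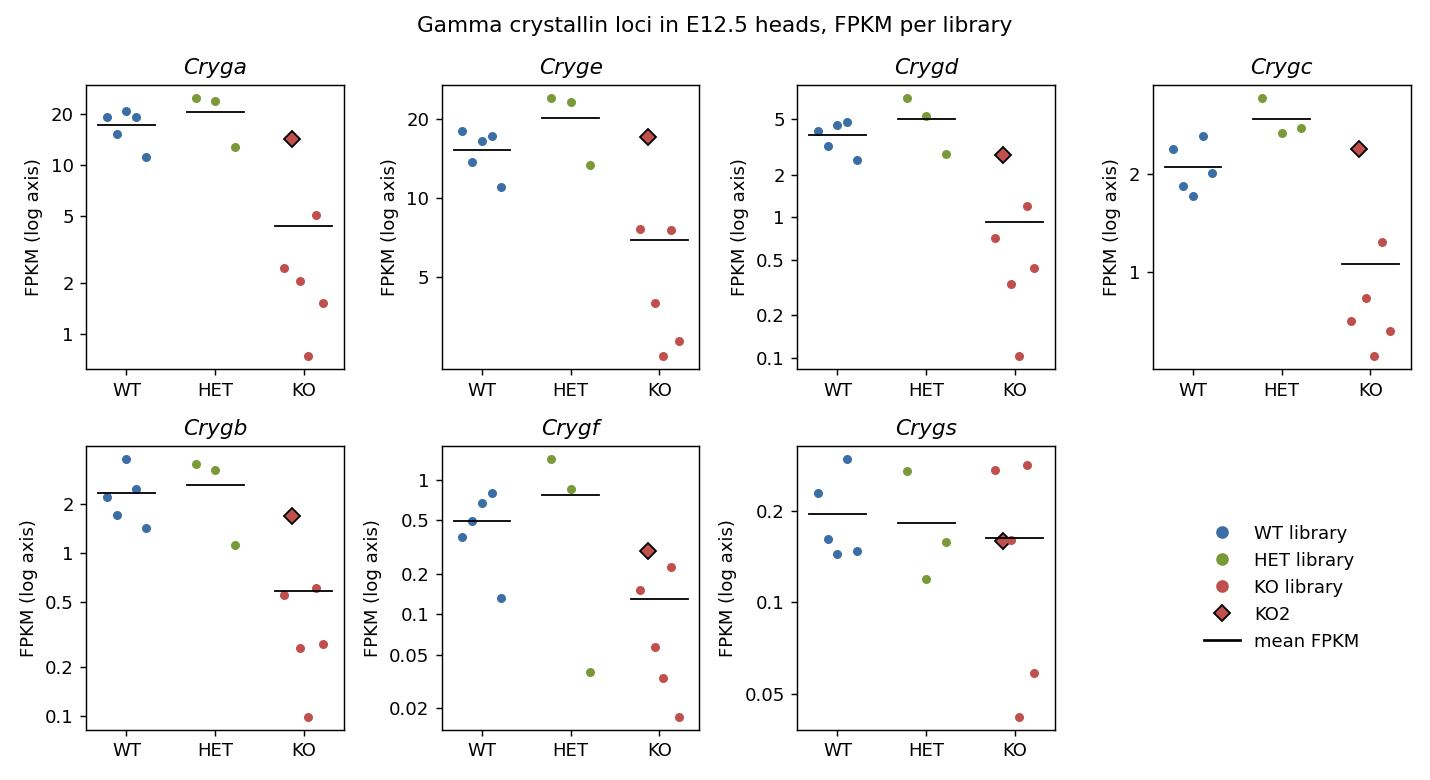
FPKM of the 7 genes in each library (log y axes, one panel per gene; points are libraries by genotype, the diamond is KO2 and lines are mean FPKM). For Cryga, Cryge, Crygd, Crygc and Crygb, KO2 sits among the WT libraries and the other 5 KO libraries sit below them, while Crygs overlaps in all groups.

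Called lower in KO than in WT by limma-trend, at an adjusted p under 0.05 over all tested loci, were 5 of the 6 fitted members, all but Crygf, where 5.61% of all tested loci were called lower. The members were selected on this contrast, so nothing is read from that count. Cryge was no longer called when WT1, WT3, WT4, KO3, KO4 or KO6 was left out, and Crygf was called without WT5 or without HET5, which gave counts of 4 and 6. Crygf was also called with quantile normalization (-2.34), in the authors' matrix (-2.72) and with only the 2 groups in the fit. The median log2 difference of the 6 was -1.77, and that of all tested loci was -0.002. The same median was -1.78 with library medians made equal, -2.55 with quantile normalization, and -2.48 in the log2 matrix that the authors deposited, where all loci together shifted by 0.204.

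The KO libraries differed among themselves far more than the WT libraries did. From the lowest to the highest KO library, FPKM differed 27.2-fold for Crygd, 19.2-fold for Cryga, 17.2-fold for Crygb, 6.78-fold for Cryge and 4.31-fold for Crygc, against 1.53-fold to 2.68-fold for these genes in WT. The SD of log2(FPKM + 0.1) in KO was 1.42 for Cryga, 1.33 for Crygd, 1.09 for Crygb, 1.03 for Cryge and 0.71 for Crygc, which is 3.9, 3.61, 2.09, 3.56 and 2.91 times that in WT. Over all tested loci the median SD was 0.19 in KO and 0.13 in WT, 75% of loci varied more in KO, and 2.92% had a KO SD at least as large as that of Cryga. Without KO2 the KO SD was 0.96 for Cryga and 0.39 for Crygc. Crygf varied about as much in WT (SD 0.76) as in KO (0.72). The larger KO spread was not particular to the gamma genes. The SD in KO and WT was 0.84 and 0.21 for Cryaa, 0.85 and 0.15 for Cryba1, 1.01 and 0.31 for Cryba2 and 0.92 and 0.29 for Cryba4. It was 0.86 and 0.26 for Crybb1 and 0.94 and 0.18 for Crybb3, but 0.23 and 0.2 for Cryab and 0.32 and 0.3 for Crygn. KO libraries differed 7.86-fold for Cryba2 and 6.93-fold for Cryba4, more than for Cryge.

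The KO libraries kept nearly one order from gene to gene. KO2 was highest for all 6 fitted members, KO5 was second for 5 and KO1 for Cryge, and KO4 was lowest for 5 and KO6 for Crygf. Summed gamma crystallin FPKM for KO1 to KO6 was 12.48, 38.6, 7.69, 4.08, 16.2 and 5.85. In WT it was 28.5 to 48.3, with a mean of 41.4 ± 8.66 (SD, n = 5), and in HET 64.7, 59 and 33. The KO mean of 14.1 ± 12.8 was 34.2% of WT, and 22.4% without KO2. KO2 was not apart in Zcchc8 RNA, at 14.3 FPKM within the range of the other KO libraries. KO2 was male by Xist and Y-linked RNA, as was KO3, whose gamma sum was among the lower ones, and the other KO libraries were female. In WT the sums of the males WT1, WT3 and WT4 (46.5, 48.3 and 47.25) were above those of the females WT2 and WT5 (36.4 and 28.5). In HET the male HET3 (64.7) was above the females HET4 and HET5 (59 and 33). With sex as a covariate the median log2 difference was -1.57, and the part of sex in the gamma levels was not tested further.

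Proportions among the members also differed between KO and WT libraries, KO2 included, with a doubt over Cryga in KO1. The FPKM of Cryga was 1.01 to 1.26 times that of Cryge in WT and 0.96 to 1.03 times in HET. In KO1 to KO6 the ratio was 0.324, 0.833, 0.512, 0.294, 0.669 and 0.533. As deposited, every KO library thus lay below every WT and HET library, with a mean of 0.527 ± 0.205 (SD, n = 6) against 1.11 ± 0.0919 (SD, n = 5) in WT. If the FPKM of the separate AC101869.3 locus is counted with Cryga, an approximation for loci of unknown effective length, KO1 moves to 2.27, above every WT library, and the KO mean to 0.851, while the other 5 KO libraries stay below. Crygd relative to Cryge was 0.228 to 0.279 in WT, 0.212 to 0.295 in HET and 0.0409 to 0.164 in KO, again with no overlap. Crygc relative to Cryge did overlap, at 0.103 to 0.181 in WT and 0.093 to 0.23 in KO. As deposited, Cryga made up 41.2% of the summed gamma RNA in WT and 26.5% in KO, and Cryge 37.2% and 52.5%. The ratios come from the libraries used to select the genes and carry no test, and Cryge shares the most sequence with other members.

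The summed gamma crystallins were also lower in KO, as deposited, relative to Cryaa and on average to the summed beta crystallins. Gene by gene the 2 families overlapped. KO means of Cryga, Crygb, Crygd and Crygf were 24.2% to 26.4% of WT, Cryge 45.4% and Crygc 50.5%. Those of the tested beta crystallins ran from 37.8% (Cryba4) and 41% (Cryba2) to 55.4% (Cryba1). The gamma genes were selected for low KO values, so these comparisons carry no test. The gamma sum was 57.3% to 74.8% of the FPKM of Cryaa, the gene of alpha A crystallin, in WT and 58.5% to 76.5% in HET. In KO1 to KO6 it was 30.5%, 54.5%, 38%, 25.1%, 40.3% and 32.5%, below every WT and HET library. With AC101869.3 counted as Cryga, KO1 would be at 66.8%, inside the WT range, and the KO mean at 42.9% in place of 36.8%. In WT5 and HET5, the libraries with the lowest gamma sums of their groups, the percentage was also the lowest, at 57.3% and 58.5%. KO2 had a higher gamma sum than WT5 and a lower percentage of Cryaa. Relative to the summed beta crystallins, the gamma sum was 53.5% ± 5.5 in WT and 32.4% ± 7.01 in KO, where KO2 at 44.9% reached the lowest WT library, also at 44.9%, and KO1 with AC101869.3 counted would be at 70.5%.

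**Figure D3:**
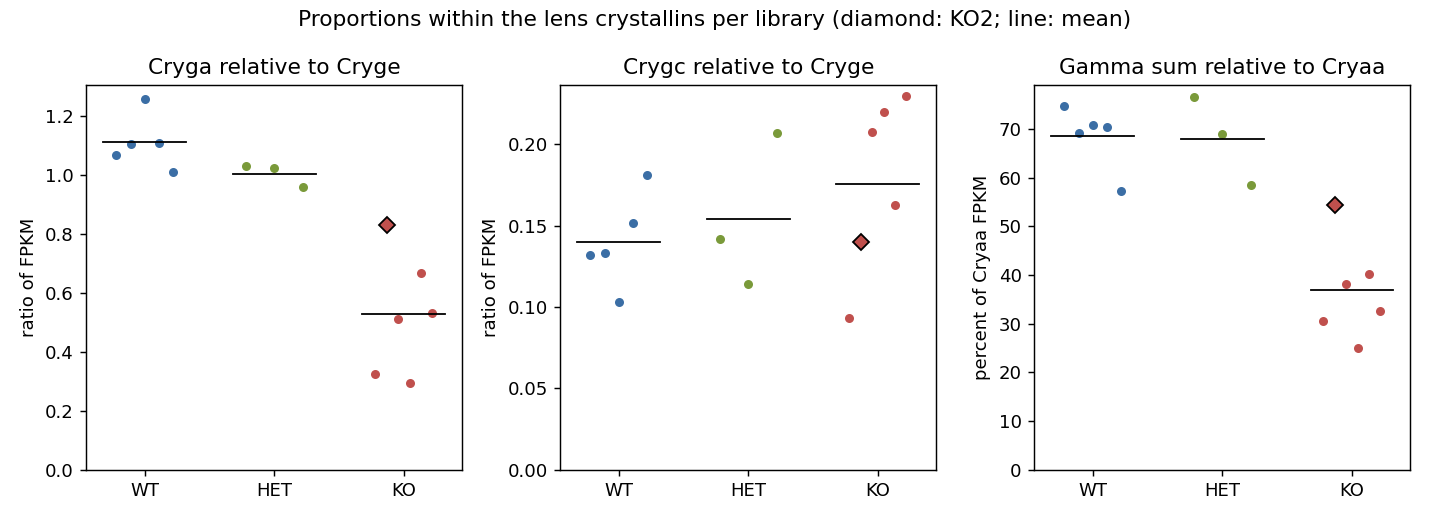
Ratio of Cryga to Cryge FPKM, ratio of Crygc to Cryge FPKM, and the gamma crystallin sum as a percentage of Cryaa FPKM, for each library by genotype (diamonds, KO2; lines, means). Cryga to Cryge and the percentage of Cryaa are lower in all 6 KO libraries than in any WT or HET library as deposited (KO1 is uncertain), and Crygc to Cryge overlaps.

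HET heads had gamma crystallin levels that did not pass the test against WT. The HET libraries played no part in choosing the genes, but the WT libraries they are compared with did. Log2 differences were 0.23 for Cryga, 0.10 for Crygb, 0.47 for Crygc, 0.33 for Crygd, 0.37 for Cryge and 0.12 for Crygf, with SE of 0.33 to 0.71 and a limma-trend adjusted p of 1 for each. Called either way were 0 of 6 members and 0.00549% of all tested loci, and at an unadjusted p under 0.05 there were 0 of 6 members and 354 of 18217 loci. All 6 differences were above 0, Crygf being in the fit only through WT and HET libraries. The 95% interval was -0.24 to 1.18 for Crygc and -1.32 to 1.79 for Cryga, so changes of up to a few fold are not shown to be absent. The fit used 1 spread for all genotypes, so these SE and intervals also carry the larger spread of the KO libraries. For Cryga the SD of log2(FPKM + 0.1) was 0.36 in WT, 0.53 in HET and 1.42 in KO. The differences of Crygb and Crygf turned negative without HET3 (-0.19 and -0.57), without HET4 (-0.12 and -0.22) and without WT5 (-0.05 and -0.18). HET5 was lower than HET3 and HET4 for Cryga, Crygb, Crygd, Cryge and Crygf, and was between them for Crygc.

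KO against HET uses the same KO libraries and is given as a description. The log2 differences were -2.78 for Cryga, -2.74 for Crygd, -2.21 for Crygb, -1.80 for Cryge, -1.54 for Crygc and -1.50 for Crygf, with SE of 0.32 to 0.69. Called lower were 5 of 6 members, beside 4.36% of all tested loci. Without HET3 or without HET4, 2 of 6 were called, Crygc and Crygd.

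Across the 14 libraries the fitted members varied together. Pearson's r of log2(FPKM + 0.1) over 15 pairs of loci was 0.7 to 0.99, with a median of 0.94. After subtracting each genotype's mean it was 0.46 to 0.97 (median 0.85), and in the 6 KO libraries alone 0.84 to 0.99. The points share libraries and depth, and some members share fragments, so the values are descriptive. All 5 KO libraries other than KO2 lay below every WT library at 5 of the 6 members and at 3.15% of all tested loci, a measure taken on the selecting contrast.

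Most of the other lens crystallins were lower in KO as well. Across the 14 libraries, Pearson's r with the gamma mean was 0.969 to 0.985 for Cryaa and the 5 tested beta crystallins, 0.766 for Cryab and 0.292 for Crygn, and after subtracting genotype means it was 0.944 to 0.961, 0.298 and 0.669. Of 8 tested loci, 6 were lower in KO than in WT and 0 higher, with a median log2 difference of -1.12, beside 5.61% of all loci lower and 19.0% higher. They were Cryba4 (-1.62, limma-trend adjusted p = 0.0054), Cryba2 (-1.51), Crybb1 (-1.20), Crybb3 (-1.18) and Cryba1 (-1.06), which code for beta crystallins, and Cryab (-0.52, adjusted p = 0.0035), the small heat shock protein alpha B crystallin, which many tissues express. Cryba1 and Crybb3, at adjusted p of 0.0396 and 0.0423, lost their calls when any of 9 and 10 single libraries was left out (limma-trend adjusted p up to 0.0848 and 0.091), the exceptions being HET5, KO1, KO2 and KO5 for both and HET3 for Cryba1. Crybb1 lost its call without WT3, WT4, KO3 or KO6 (up to 0.0601). Of the 6, Cryba4 alone kept its call in the authors' matrix, where the adjusted p of the others was 0.0552 to 0.531. Cryaa, the most abundant lens crystallin, went from 59.9 ± 8.42 FPKM to 34.4 ± 21 (limma-trend adjusted p = 0.053) and passed the threshold without KO1 (0.0471) or without KO2 (0.0032), with quantile normalization (0.0483) and with library weights (0.00966). Crygn, whose product is intermediate between beta and gamma crystallins, was at 2.98 FPKM in WT and 3.41 in KO (0.19, limma-trend adjusted p = 0.47), with no difference after quantile normalization and a call as higher in the authors' matrix (0.59, adjusted p = 0.0458). Crybb2, a late lens crystallin, was listed at 0 in every library. In KO2, Cryba4 was at 5.91 FPKM, Crybb1 at 16 and Cryaa at 70.8, near or above the WT means of 6.41, 15.4 and 59.9.

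Most lens fibre genes outside the crystallins did not pass the test. Of 11 tested loci, 1 was lower and 0 higher, with a median of -0.16, beside 5.61% of all tested loci lower and 19.0% higher. Lim2, a membrane protein of lens fibres, had 1.14 ± 0.233 FPKM in WT, 1.9 ± 0.63 in HET and 0.563 ± 0.446 in KO (-1.11, adjusted p = 0.029), and lost its call without WT1, WT3, WT4, KO3, KO4 or KO6 (adjusted p up to 0.0746), and with no filter on low loci (0.0736). Mip, the water channel of fibre cells, was at 2.83 FPKM in WT and 2.38 in KO (-0.30, adjusted p = 0.35, with 0.05 in the authors' matrix), and the beaded filament gene Bfsp2 at 1.45 and 1.09 (-0.46, adjusted p = 0.18). With quantile normalization Bfsp2 was called lower (-1.15, limma-trend adjusted p = 0.0162). The 3 most abundant loci of the list, Cdh2, Lenep and Caprin2, are also expressed outside the lens or overlap other genes and differed by 0.05, -0.08 and -0.02, while the authors' matrix called Lenep (0.22, adjusted p = 0.0431) and Caprin2 (0.37, adjusted p = 0.0199) higher.

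**Figure D4:**
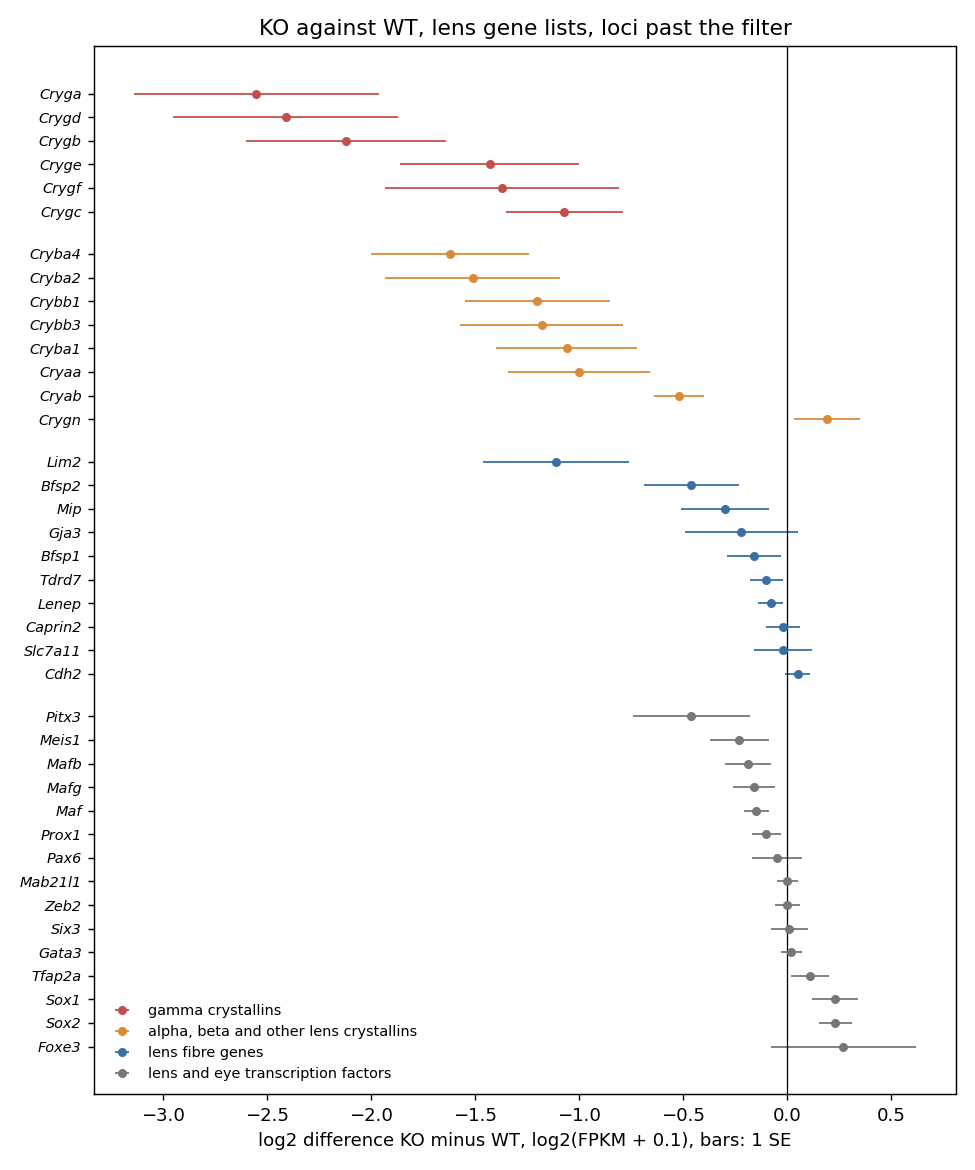
Log2 difference of KO from WT (x axis, log2(FPKM + 0.1); points with bars of 1 SE) for tested loci of 4 lists, of which 1 lens fibre locus is not shown. The 6 gamma crystallins run from -2.55 to -1.07, 7 of the 8 other lens crystallins lie below 0, and the lens fibre genes other than Lim2 and the transcription factors lie between -0.46 and 0.27.

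Genes of lens and eye transcription factors showed 0 of 15 tested loci lower and 1 higher, with a median of 0 to 2 decimals. Of all tested loci, 5.61% were lower and 19.0% higher. Maf, which codes for a main activator of crystallin genes, had 10.5 ± 0.672 FPKM in WT and 9.48 ± 0.672 in KO (-0.15, limma-trend adjusted p = 0.086), passed the threshold without WT5 (0.0435), without KO3 (0.0153) and with library weights (0.0145), and differed by 0.18 in the authors' matrix. Prox1 was at 4.26 and 3.95 (-0.10, adjusted p = 0.34), Pitx3 at 2.78 and 2.17 (-0.46, adjusted p = 0.27) and Foxe3, of lens epithelium, at 0.411 and 0.564 (0.27, adjusted p = 0.65). Prox1 was higher in KO in the authors' matrix (0.35, limma-trend adjusted p = 0.0425), and Foxe3 had the other sign there (-0.05) and with quantile normalization (-0.93). Pax6, Zeb2 and Sox2 were the most abundant of the list over all 14 libraries, with Pax6 at 29.9 and 29.2 FPKM and Zeb2 at 46.6 in both. The Zeb2 locus also carries the names Gtdc1 and Mir5129, and the Sox2 locus the names Gm27403, Gm27611, Mir1897 and Sox2ot. Values under Sox2 are therefore those of the whole locus, and the part of Sox2 itself in them was not tested. Sox2 rose from 68 to 79.9 FPKM (0.23, adjusted p = 0.047), a call that was lost when any single library other than WT1, WT3, KO3 and KO5 was left out (adjusted p up to 0.123). Most of these genes are also expressed in brain, so head levels do not give their lens levels.

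Genes of other eye tissues mostly did not pass the test, and of all tested loci 5.61% were called lower and 19.0% higher. Of 11 tested retina loci 0 were called either way (median 0.10), with Lhx2 at 71.1 FPKM in WT and 70.1 in KO, Otx2 at 31.9 and 34.5, and Isl1 at 18.2 and 16.7. Of 7 pigment cell loci 1 was lower, Rab38, a GTPase of melanosome transport (2.7 to 2.01 FPKM, -0.41, adjusted p = 0.0011), while Dct and Pmel, of melanin synthesis and melanosome structure, were at 3.61 and 5.79 FPKM in WT and 3.46 and 6.09 in KO. The authors' matrix called Otx2 (0.26, limma-trend adjusted p = 0.0498) and Dct (0.37, adjusted p = 0.0303) higher, and the Otx2 locus also carries the name RP23-131O4.5. Among genes that carry the crystallin name without being lens structural proteins, 1 of 7 tested loci was lower, Cryl1, a metabolic enzyme (7.89 to 5.69 FPKM, -0.46, adjusted p = 0.00015). The calls of Rab38 and Cryl1 were lost in the authors' matrix (adjusted p = 0.741 and 0.597).

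No gene around the gamma crystallins was called lower. Within 500 kb of a member, 0 of 17 tested loci outside the family were lower in KO and 3 higher. Their median log2 difference was 0.02, and of all tested loci 5.61% were lower and 19.0% higher. Creb1 and Pikfyve, on either side of the 5 clustered genes, differed by 0.07 and -0.02, and were called higher in the authors' matrix (0.29 and 0.41, limma-trend adjusted p = 0.00886 and 0.00444). All 3 higher loci were AC101915.2 (0.33, adjusted p = 0.046, lost when any single library other than WT4, WT5, KO2 and KO6 was left out, up to 0.122), the locus that holds Eif4a2 (0.27, adjusted p = 0.014) and Adipoq (2.58, adjusted p = 7.0e-10), the gene of a fat cell hormone that lies near Crygs on chromosome 16.

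Markers of other head tissues were lower in KO as well, and KO2 was not among the WT libraries for them. Lower in KO were 3 of 4 surface epithelium loci (Krt5, Krt14, Krt15), 2 of 4 muscle loci (Actn2, Myl4) and 2 of 4 head mesenchyme loci (Col1a2, Dcn), while 0 of 3 neuron loci were called. Of all tested loci, 5.61% were called lower and 19.0% higher. Actn2 and Myl4 lost their calls without WT2 (limma-trend adjusted p = 0.0567 and 0.0604) or without WT4 (0.0554 and 0.0599), and in the authors' matrix (0.11 and 0.0645). Summed FPKM of the muscle markers was 36 to 68.8 in WT, 44 to 60.5 in HET and 9.88 to 52.7 in KO, and KO2 was the lowest. The mesenchyme sum was 359.3 to 422.3 in WT, 373 to 387.1 in HET and 271 to 373.5 in KO, again with KO2 lowest. For the epithelium it was 75.9 to 109.3, 85.6 to 87.8 and 51.7 to 68.3, with KO2 at 55.2. KO2 had the highest sum of retina genes, 180 against 122 to 152.5 in WT, and of lens fibre genes, 132.8 against 111.1 to 122.5. Most of the retina sum in KO2 was Lhx2 (100.4) and Otx2 (47.6). Most of the lens fibre sum was Cdh2 (97.1), which is also expressed outside the lens. In whole heads these 2 sums therefore do not give the amount of retina or lens fibre RNA. None of these markers was at 0 in all libraries, and the part of these differences in the gamma crystallin values was not tested.

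Outside the crystallins, the 8 loci whose levels over the 14 libraries were most like the mean of the 6 members included 1 of the lens lists, Lim2. By Pearson's r on log2(FPKM + 0.1) among 16213 named loci they were Tmem130 (0.97), Chd5 (0.958), Lim2 (0.957), Thra (0.955), Mmd2 (0.952), Golga7b (0.952), Gper1 (0.951) and Zbtb7c (0.951). After subtracting genotype means their r was 0.859 to 0.934. The loci were picked by r over these same libraries, so this value is not independent of the choice. It also pools the genotypes and leans on KO, where the gamma mean had an SD of 1.02 against 0.367 in WT. Likeness within a single genotype was not tested. Tmem130, a transmembrane protein gene, had 20.9 to 27.3 FPKM in WT, 24.9 in KO2 and 15.4 to 18.9 in the other KO libraries. Chd5, a chromatin remodeller of neurons, had 2.09 to 3.91 in WT, 3.03 in KO2 and at most 2.27 in the others. Thra, the thyroid hormone receptor alpha gene, had 88.8 to 117.5 in WT, 95.7 in KO2 and at most 88.3 in the others. These genes varied over a far smaller range than the gamma crystallins, with log2 differences of KO from WT of -0.73 (Chd5) to -0.36 (Thra and Zbtb7c), apart from Lim2, and Mmd2 went from -0.40 to 0.05 in the authors' matrix.

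The strongest opposite pattern, looked up after the values were seen, belonged to Igf2bp2 (r of -0.95, and -0.909 within genotypes), Hemgn (-0.947), Sprr2b (-0.939), Car14 (-0.937) and Igf2bp3 (-0.934). Igf2bp2 and Igf2bp3 code for RNA-binding proteins abundant in embryonic tissue, Hemgn for a protein of red cell precursors and Sprr2b for a protein of the cornified envelope. Igf2bp2 had 54 to 62.1 FPKM in WT, 56.6 in KO2 and 61.8 to 72.5 in the other KO libraries. Sprr2b had 0.0546 to 0.176 FPKM in WT, 0.0767 in KO2 and 0.613 to 0.803 in the others. In both, KO2 sat with the WT libraries, a place that the choice by r with the gamma mean favours. KO2 was also inside the WT range for Car14 and Igf2bp3. For Hemgn it was not, at 0.821 FPKM against 0.266 to 0.554 in WT, and KO5 was lower than KO2 at 0.751.

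**Figure D5:**
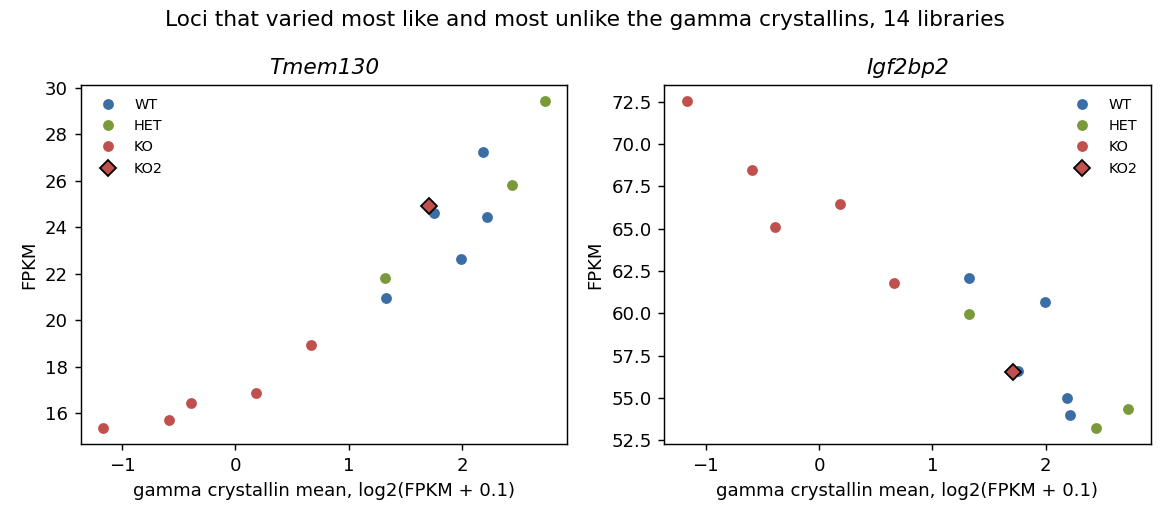
Mean log2(FPKM + 0.1) of the 6 fitted gamma crystallin loci (x axis) against FPKM of Tmem130 and of Igf2bp2 (y axes) in 14 libraries by genotype. The r over libraries is 0.97 and -0.95, and KO2 (diamond) lies among the WT libraries in both panels.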

How the data were processed

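RNA of 14 libraries from E12.5 heads was analysed (5 WT, 3 HET, 6 KO). Cuffdiff, TopHat2 2.1.0, Partek, FastQC 0.10.0, bcl2fastq and the build mm10 are named in the submitters' processing notes, without roles. The strand setting and gene models were not found there. FPKM values were deposited by the authors per locus for each library, as was a matrix of log2 values, quantile normalized by the look of its equal quartiles and blank at FPKM 0. The files hold no counts, so depth is known only relative to WT1, from FPKM steps of loci under 0.3. A listed 0 may be a failed estimate.

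Values were analysed as log2(FPKM + 0.1), which understates changes of low genes. Loci that reached 0.5 FPKM in 3 or more libraries were fitted with limma-trend (limma 3.58.1, R 4.3.3, robust moderation), 1 mean for each genotype, no covariates. At each locus the genotypes shared 1 estimate of the spread. Adjustment was by Benjamini and Hochberg's method across the 18217 loci, with calls at 0.05, and the fit was tested on simulated data. Tables and figures used Python 3.11.15, pandas 2.3.3, numpy 2.4.6, scipy 1.17.1, biopython 1.88 and matplotlib 3.10.9. Genes and coding sequences are from GENCODE M21, and promoters from RefSeq, where all 7 symbols matched.

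The members and the gene lists were chosen with earlier results of these data known. Named by rule were the members, Zcchc8, the 3 most abundant and up to 6 called loci of each list, and the 8 loci, crystallins apart, most correlated with the gamma mean. The most abundant neighbours, other crystallin-named loci and 1 counted lens fibre locus are not reported here, and Mip, Bfsp2, Maf, Prox1, Pitx3, Foxe3, Crygn, Creb1, Pikfyve and the opposite pattern were named after values were seen. Alternatives were pseudocounts of 0.5 and 1, no filter, an FPKM of at least 1 in 5 libraries, equal library medians, quantile normalization, the authors' matrix, the 2 compared groups alone, the replicate number as a block, sex, library weights, omission of each library and, added after seeing the data, AC101869.3 counted with Cryga.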

Additional observations from a re-analysis of the deposited data

Results flagged for a closer look

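On the FPKM scale, library KO2 stood above the other KO libraries by a gap large for the group's range at several members. Its FPKM was 14.2 for Cryga (next highest KO library 5.07), 1.69 for Crygb (0.608), 2.38 for Crygc (1.24), 17 for Cryge (7.61) and 38.6 for the gamma crystallin sum (16.2), each a gap of 0.63 to 0.68 of the range where 0.625 is the 95% critical value for 6 libraries. The second Cryge locus was at 1.25 FPKM in KO2 and at 0 elsewhere. Of 25 groups examined 6 held such a library, where chance gives about 1 in 20, and these values are correlated with each other. KO2 was not apart by this rule for Crygd, Crygf, the Cryga to Cryge ratio or the percentage of Cryaa. Nor was it apart for the mean log2(FPKM + 0.1) of the fitted members, at 1.71 against 0.664 in KO5 and -1.17 in KO4. The locus named AC101869.3 alone, a name that the Cryga locus also carries, was at 14.8 FPKM in KO1 and listed at 0 in the other 13 libraries. How fragments were divided between it and Cryga in KO1 was not tested, and the Cryga level of KO1 is uncertain for that reason.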

How the results depend on the processing

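The 6 fitted members kept a lower KO than WT level under every alternative that fitted them (Crygf did not pass the filter of FPKM 1 in 5 libraries). Leaving out each library in turn, 4 to 6 of the 6 gamma crystallins were called lower than in WT (median difference -2.11 to -1.54) and 2 to 6 lower than in HET (-2.63 to -1.75), or 3 with only the 2 groups in the fit; the SD among KO libraries was 0.71 to 1.14, and 0.6 with a pseudocount of 1 against 1.02 with 0.1. The 9 lower loci of the other lists became 3 in the authors' matrix, 26 with quantile normalization and 5 to 12 on leaving out libraries. Same-numbered libraries did not deviate together over all tested loci (r of -0.11 to 0.1). An r over all loci cannot exclude a pairing that acts on few of them, so whether the numbers pair libraries is not known. With the replicate number as a block, 4 gamma crystallins were lower, Cryge being lost, and 4 loci of the other lists.

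Small differences changed sign: in the authors' matrix, Crygf in HET (-0.22), Lenep (0.22), Caprin2 (0.37), Zeb2 (0.13), Pax6 (0.11), Lhx2 (0.08), Isl1 (0.11), Dct (0.37), Mmd2 (0.05), Mip (0.05), Maf (0.18), Prox1 (0.35), Foxe3 (-0.05) and Pikfyve (0.41), of which Lenep, Caprin2, Dct, Prox1 and Pikfyve were called higher; with sex, Caprin2 (0.02), Zeb2 (0.01), Pax6 (0.02), Lhx2 (0.02) and Pmel (-0.05); with quantile normalization, Foxe3 (-0.93) and Crygn (0); and Zeb2 with that scaling (0.01), weights (0.01) and the block (0), Pmel with that scaling (-0.05), equal medians (-0.01) and weights (-0.02). Without single libraries, ranges were -0.19 to 0.6 (Crygb in HET), -0.57 to 1.17 (Crygf in HET), -0.07 to 0.02 (Caprin2), -0.03 to 0.05 (Zeb2), -0.16 to 0.01 (Pax6), -0.14 to 0.02 (Lhx2), -0.17 to 0.08 (Pmel), -0.06 to 0.04 (Pikfyve) and -0.12 to 0 (Dct). With the AC101869.3 locus counted as Cryga, chosen after seeing the data, the KO mean of the Cryga to Cryge ratio is 0.851 in place of 0.527. The cause was not tested. Unknown depth leaves Crygf and Crygs the least certain.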
